A study of Mus musculus with 6 samples.

Results

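The epithelial junction genes of the mouse blastocyst were examined: 35 genes, chosen by name out of the 49993 genes counted, that encode keratins and proteins of tight junctions, adherens junctions and desmosomes. They comprised 4 keratin, 7 adherens junction, 8 desmosome, 12 tight junction membrane and 4 tight junction plaque genes. Transcripts were counted by RNA-seq, 3 libraries in each group, in material that the sources describe both as blastocysts and as inner cell masses. In both groups the mothers were primed with 10 IU of pregnant mare serum gonadotrophin, received 10 IU of human chorionic gonadotrophin (hCG) 48 h afterwards, and mated naturally. In the in vivo group, day 3.5 blastocysts were flushed from the uterus. In the in vitro group, zygotes fertilized in vivo were taken from the oviduct 19 to 21 h after hCG, freed of cumulus cells with hyaluronidase, and grown to blastocysts in KSOM, a potassium-enriched embryo culture medium, at 37 °C with 5% CO2. The sample details hold no collection day for the in vitro group, so embryo age could not be compared between the groups. Embryos of both groups were picked by stage and morphology before freezing, and no strain, age or genotype is given in the sources used here. The study asked which genes accompany telomere shortening during culture. Here the same libraries were used to describe the genes of the embryo's outer epithelium.

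The trophectoderm is the first epithelium of the mammalian embryo and encloses the inner cell mass and the fluid-filled cavity. Adherens junctions hold neighbouring cells together through cadherins linked by catenins to actin, and desmosomes join cadherins to keratin filaments. Tight junctions seal the space between the cells, so that fluid pumped inward by the trophectoderm is retained and the blastocyst expands. Claudins form the strands of the seal, and the zonula occludens proteins anchor them to the cytoskeleton.

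Total counts ranged from 6918288 to 17643429 per library, and a count of 3 corresponded to 0.216 to 0.527 CPM (counts scaled to a common library size), the unit used below for levels within a gene. The share of counts on the 18S ribosomal RNA gene was 16.7% and 22.2% in in vivo replicates 1 and 2 but 35.8% to 41.7% in the other 4 libraries. The library of in vitro replicate 2 had 7494 Xist counts and 0 Uty counts, whereas the other 5 had 8 to 341 Xist counts and 52 to 373 Uty counts. Xist is the transcript of the inactive X chromosome and Uty lies on the Y chromosome, so that library stood apart from the other 5 in sex-linked transcripts. The labels describe each library as one inner cell mass, while naming blastocysts as the tissue and an embryonic stem cell as the cell type. All 6 transcription factors listed as trophectoderm markers had counts in every library. Their summed level was 238 to 296 CPM in vivo, versus 394 to 467 CPM in vitro. Gata3 led this sum, with 98.3 to 150 CPM in vivo, versus 191 to 275 CPM in vitro. It was the only one of the 6 whose groups did not overlap. Epiblast markers summed to 1657 to 2012 CPM in vivo, versus 1247 to 1820 CPM in vitro. Dppa5a led that sum, with a mean of 1081 CPM over the 6 libraries. Of the 10 epiblast markers, 4 had estimates higher in vitro and the others lower. Sox2, 1 of the 4, was at 22.1, 32.1 and 51.4 CPM in vivo, versus 157, 54.2 and 58.2 CPM in vitro. Fewer cells of a type and less RNA per cell cannot be told apart in such bulk libraries, and the part of trophectoderm content in the differences below was not tested.

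Levels differed widely among the junction and keratin genes. Krt8, Krt18 and Epcam were at 163 CPM or more in every library, whereas Cdh3 was at 3.14 CPM or less. Most of the members tested overlapped between the groups, as did most of all genes tested. Of the 35 genes, 34 had counts and 32 passed the filter on low counts; Krt19 and Pkp3 did not pass, and Cldn23 had 0 counts in each library, which allows up to 0.216 to 0.527 CPM. No gene reached an adjusted p of 0.05 in edgeR's quasi-likelihood test, 0 of 32 against 0.0% of all 14301 genes tested. At an unadjusted p of 0.05, 4 genes were higher in vitro (Ctnna1, Cldn3, Cldn4 and Tjp1; 12.5%, with 5.11% of all genes) and 1 was lower (Cldn6; 3.12%, with 5.08% of all genes). In either direction this was 5 of 32 genes, 15.6%, where 10.2% of all genes met the same threshold. The same 5 genes were those whose groups did not overlap, 15.6% against 19.3% of all genes. That share was near the background. By direction it was 12.5% against 9.27% for genes higher in vitro and 3.12% against 10.0% for genes lower in vitro. DESeq2 called 1 of the genes, Cldn6, at an adjusted p of 0.05, with a background of 2.82%, and limma-voom called 0 with a background of 0.713%.

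Of the 32 genes tested, 22 had a positive log2 fold change (the log2 of in vitro over in vivo), 68.8% against 49.8% of all genes. The median was 0.33 on the log2 scale, beside -0.01 for all genes. Scaling by library totals alone, in place of the trimmed mean of M values (TMM), moved the median of all genes to -0.31 and that of the members to 0.03.

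**Figure D1:**
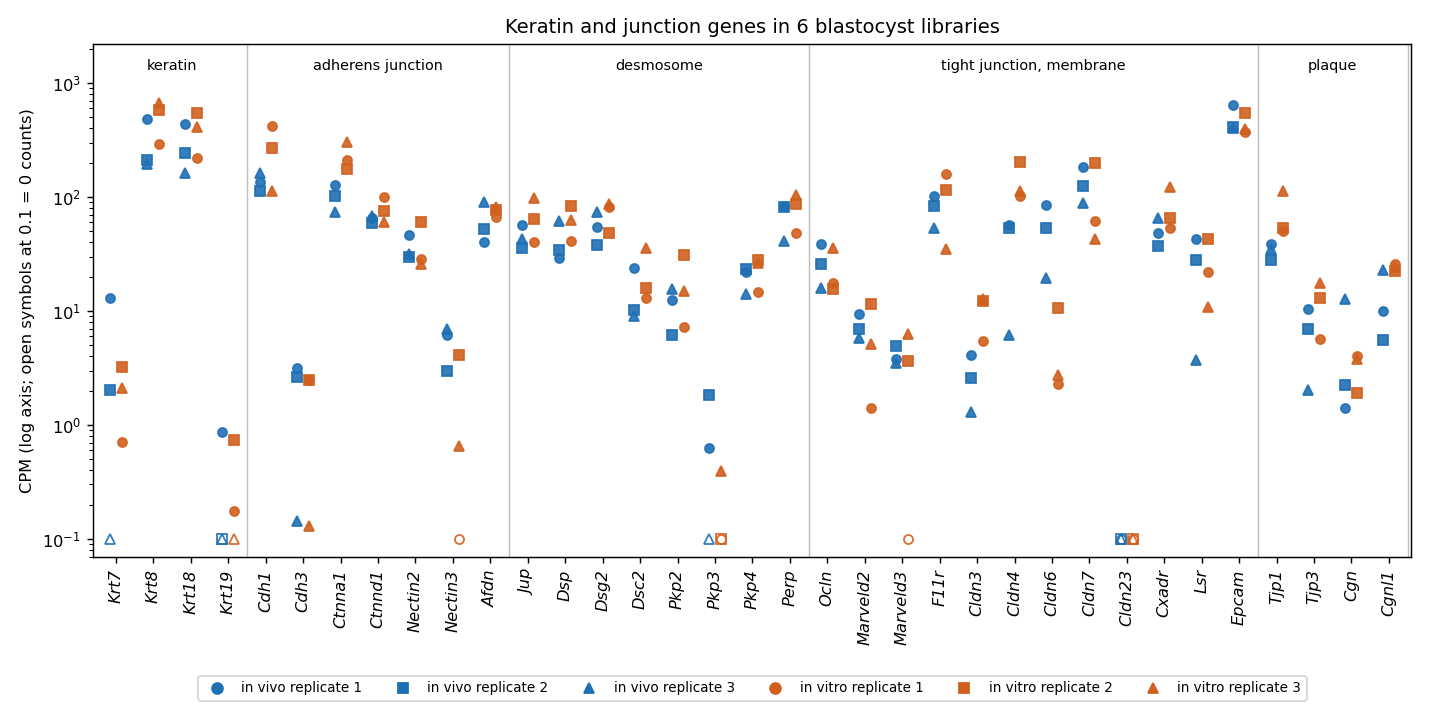
CPM of each of the 35 genes in each of the 6 libraries, on a log axis, grouped by junction type; blue symbols are in vivo, orange in vitro, the shape gives the replicate, and open symbols at 0.1 mark 0 counts. Krt8, Krt18 and Epcam are at 163 CPM or more in every library, and the Cldn6 points of the groups are separate.

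Levels per length were taken over all annotated exons of a gene merged, 1400 bases for Krt18 and 21060 for Ctnnd1. That length need not be the length of a transcript present here, so the order is approximate. Krt18 led it with a mean of 241 CPM per kb over the 6 libraries, then Krt8 with 225 and Epcam with 224. The ranges of these 3 genes overlapped, so their order is not resolved. Cldn7 followed with 80.2 CPM per kb, Cldn4 with 49.2, Cdh1 with 45.4, Ctnna1 with 41.1, Perp with 39.0 and F11r with 36.8, and again these neighbours overlapped across libraries. Cldn6 followed with 19.1 CPM per kb, a mean of 34.8 ± 21.7 in vivo and 3.4 ± 3.0 in vitro (SD, n = 3 each). At the bottom were Cdh3 with 0.45 CPM per kb, Nectin3 with 0.22, Krt19 with 0.21, Pkp3 with 0.16 and Cldn23 with 0. Epcam at its lowest, 180 CPM per kb, stood above Cldn7 at its highest. Krt7 and Krt19 were far below Krt18, and Cdh3 was far below Cdh1.

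Keratins 8 and 18 are the obligate partners of the simple epithelial filament, a type II and a type I chain. Krt8 was at 480, 212 and 195 CPM in in vivo replicates 1 to 3 and at 293, 583 and 674 CPM in in vitro replicates 1 to 3. Krt18 was at 440, 242 and 163 CPM in vivo, compared with 221, 546 and 414 CPM in vitro. Both genes were lowest in in vivo replicate 3, and the in vivo and in vitro ranges overlapped. Their log2 fold changes were 0.80 ± 0.45 (SE) and 0.48 ± 0.45. The log2 ratio of Krt8 to Krt18 stayed between -0.19 and 0.70 over the 6 libraries, with means of 0.07 ± 0.23 in vivo and 0.40 ± 0.30 in vitro (SD, n = 3 each; exact permutation p = 0.3, where 0.1 is the smallest possible).

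The pair lies side by side on chromosome 15, with 23.9 kb between them: Krt8 at chr15:101996711-102004342 on the minus strand and Krt18 at chr15:102028216-102032026 on the plus strand of GRCm38. The 250 bases before each start, from RefSeq on GRCm38.p6, are shown because the genes have one partner filament and close levels. Capitals mark matches to GCCNNNGGC, the letters searched for factors of the TFAP2 family.
Krt8, chr15:102004343-102004592, minus strand: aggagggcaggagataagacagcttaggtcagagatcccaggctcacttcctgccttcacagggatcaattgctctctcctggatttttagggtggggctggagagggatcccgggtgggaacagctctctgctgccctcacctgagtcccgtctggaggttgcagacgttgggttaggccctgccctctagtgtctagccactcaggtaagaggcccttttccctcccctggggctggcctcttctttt
Krt18, chr15:102027966-102028215, plus strand: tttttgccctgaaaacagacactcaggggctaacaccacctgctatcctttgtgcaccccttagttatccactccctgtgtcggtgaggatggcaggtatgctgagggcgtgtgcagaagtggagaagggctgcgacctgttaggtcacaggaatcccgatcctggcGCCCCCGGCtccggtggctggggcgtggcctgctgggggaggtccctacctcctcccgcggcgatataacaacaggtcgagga
Krt18 held 1 match and Krt8 held none. GC content was 58.0% and 60.4%, against a median of 52.4% over all promoters of this length.

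Krt7 and Krt19, further simple epithelial keratins, were near the detection limit. Krt7 was at 13.0, 2.0 and 0 CPM in vivo, compared with 0.703, 3.23 and 2.09 CPM in vitro, with a log2 fold change of -1.30 ± 1.65. One library, in vivo replicate 1, held the high value, and without it the log2 fold change was 0.98. Krt19 had 11, 0 and 0 counts in vivo, versus 1, 10 and 0 counts in vitro, and was not tested. The keratins summed to 934, 456 and 358 CPM in vivo, versus 515, 1133 and 1090 CPM in vitro, with overlapping groups.

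Among the adherens junction genes, Ctnna1 was higher in each in vitro library than in any in vivo library. Ctnna1 encodes alpha-catenin, which links the cadherin complex to actin. It was at 129, 102 and 73.6 CPM in vivo, compared with 211, 178 and 304 CPM in vitro. The groups were separate, with a log2 fold change of 1.18 ± 0.35 (edgeR adjusted p = 0.362; DESeq2 adjusted p = 0.0915). Cdh1, which encodes E-cadherin, the main cadherin of compaction and of the trophectoderm, was at 134, 112 and 163 CPM in vivo, compared with 417, 269 and 112 CPM in vitro. In vitro replicates 1 and 2 lay above all in vivo libraries, while in vitro replicate 3 was level with the lowest of them, and the log2 fold change was 0.96 ± 0.45 (edgeR adjusted p = 0.513).

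Ctnnd1, encoding delta-catenin, which stabilizes cadherins at the membrane, was the steadiest of the tested genes by the SD of log2(CPM + 1) over the 6 libraries, 0.28. It measured 65.7, 58.8 and 67.7 CPM in vivo, versus 100, 75.8 and 60.5 CPM in vitro. The log2 fold change was 0.30 ± 0.33. Afdn, encoding afadin, which ties nectins to actin, was at 40.0, 51.9 and 91.2 CPM in vivo, versus 66.9, 76.3 and 81.0 CPM in vitro (0.29 ± 0.38). Nectin2, an immunoglobulin-like adhesion molecule, was at 46.7, 29.9 and 31.9 CPM in vivo, versus 28.6, 60.8 and 25.6 CPM in vitro (0.09 ± 0.45). The last 3 genes overlapped between groups, and their estimates lay within 1 standard error of 0.

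Nectin3 and Cdh3, encoding P-cadherin, were low. Nectin3 was at 6.12, 2.97 and 6.97 CPM in vivo, compared with 0, 4.12 and 0.654 CPM in vitro (log2 fold change -1.71 ± 1.42, or -3.95 without in vitro replicate 2). Cdh3 was at 3.14, 2.65 and 0.144 CPM in vivo, versus 2.46, 2.5 and 0.131 CPM in vitro. Replicate 3 of each group was the low library for Cdh3, so that the spread within groups exceeded the difference of -0.22 ± 1.5. Cdh1 and Cdh3 are neighbours on chromosome 8, with a gap of 46.4 kb. Summed over the 7 adherens junction genes, in vivo libraries held 425, 360 and 434 CPM and in vitro libraries 826, 666 and 583 CPM. These sums did not overlap and were mostly Cdh1 and Ctnna1. The median log2 fold change of the 7 genes was 0.29, with 5 positive and 2 negative values, and with library totals alone as the scaling it was -0.02, with 3 positive, and the sums overlapped, at 343 to 590 in vivo against 484 to 712 in vitro.

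All 7 desmosome genes tested had positive estimates, between 0.20 and 0.65 with a median of 0.59, and none of them had an unadjusted p below 0.05. With library totals alone, where the median of all genes was -0.31, 5 of the 7 estimates were positive and all 7 lay above that median. Jup encodes plakoglobin, the catenin shared by desmosomes and adherens junctions. It was at 56.4, 35.4 and 42.6 CPM in vivo, compared with 40.6, 64.1 and 97.4 CPM in vitro (0.59 ± 0.41). Dsp encodes desmoplakin, the linker from the desmosomal plaque to keratin filaments. Its levels were 29.3, 34.1 and 61.5 CPM in vivo, versus 40.9, 84.1 and 62.6 CPM in vitro (0.59 ± 0.43). In both genes, in vitro replicate 1 lay within the in vivo range and the groups overlapped.

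The desmosomal cadherins Dsg2 and Dsc2 behaved alike in sign. Dsg2 was at 54.4, 38.2 and 74.5 CPM in vivo, compared with 81.1, 48.4 and 86.8 CPM in vitro (0.37 ± 0.39). Dsc2 was at 23.7, 10.3 and 8.99 CPM in vivo, versus 13.0, 15.9 and 35.8 CPM in vitro (0.59 ± 0.61). Each pair of groups overlapped. The plakophilins are plaque proteins that cluster desmosomal cadherins. Pkp2 was at 12.5, 6.17 and 15.5 CPM in vivo, compared with 7.20, 31.2 and 15.0 CPM in vitro (0.65 ± 0.67), and without in vitro replicate 2 its estimate was -0.04. Pkp4 was at 21.8, 23.4 and 14.0 CPM in vivo, versus 14.6, 27.9 and 26.1 CPM in vitro (0.21 ± 0.47). Pkp3 had 8, 23 and 0 counts in vivo, versus 0, 0 and 3 counts in vitro, too few to test. Perp, a membrane protein of desmosomes, was at 83.8, 82.1 and 40.7 CPM in vivo, versus 48.3, 86.3 and 103 CPM in vitro (0.20 ± 0.42). None of these 4 genes separated the groups. The 8 desmosome genes together summed to 282, 232 and 258 CPM in vivo, compared with 246, 358 and 427 CPM in vitro.

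**Figure D2:**
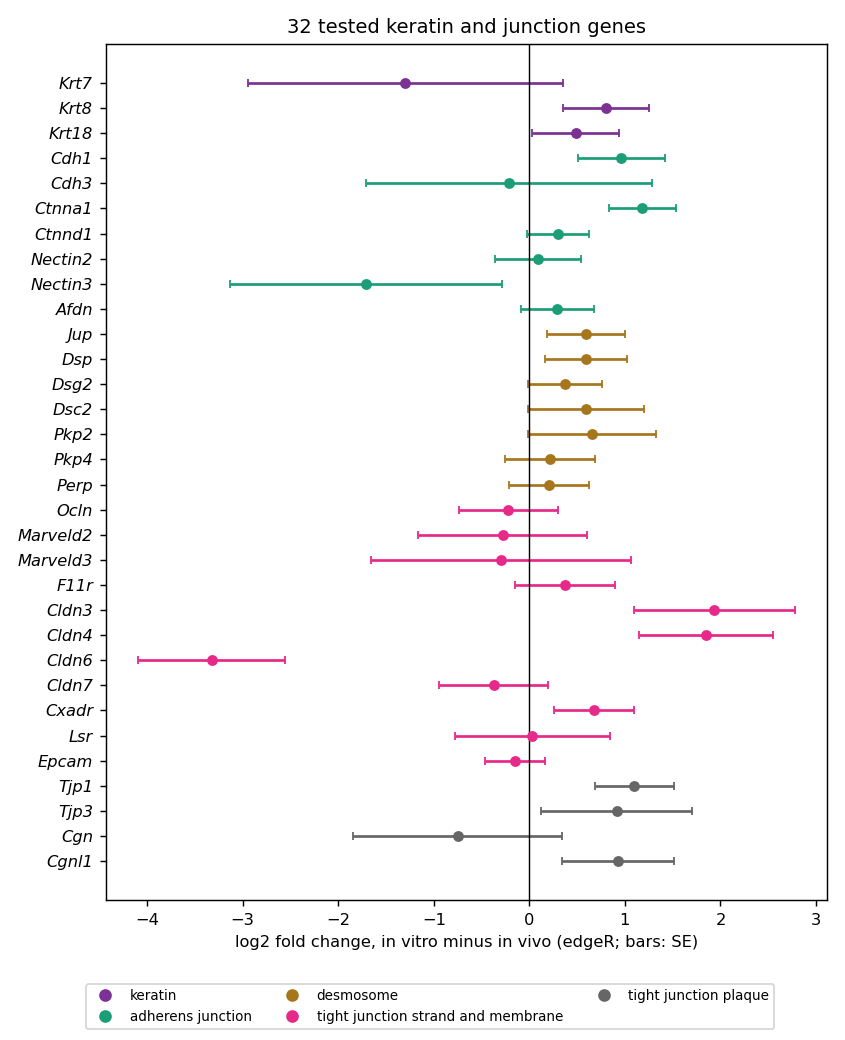
Log2 fold change, positive where higher in vitro, of the 32 tested genes from edgeR, with bars of 1 standard error, coloured by junction type. The 7 desmosome estimates lie between 0.20 and 0.65, whereas the tight junction membrane genes span -3.32 for Cldn6 to 1.94 for Cldn3.

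The tight junction membrane genes diverged most. Their log2 fold changes ran from -3.32 to 1.94, with 5 positive and 6 negative values among 11 tested and a median of -0.15. The 3 claudins whose groups did not overlap went in opposite directions: Cldn6 was lower in vitro, and Cldn3 and Cldn4 were higher.

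Cldn6, a claudin of early embryonic epithelia, had the smallest p of all members. It was at 85.6, 53.8 and 19.6 CPM in vivo (1091, 671 and 272 counts) and at 2.28, 10.5 and 2.75 CPM in vitro (13, 143 and 21 counts). Every in vivo library lay above every in vitro library, with means of 53.0 ± 33.0 and 5.18 ± 4.62 CPM (SD, n = 3 each). The log2 fold change was -3.32 ± 0.77 (edgeR adjusted p = 0.315). DESeq2, which the submitters' notes list, gave -3.34 ± 0.76 (adjusted p = 0.00168), and in limma-voom the adjusted p was 0.0820. Leaving out in vivo replicate 1, the library with the highest level, ended the DESeq2 call (adjusted p = 0.0663), and the DESeq2 value was 3.15e-06 to 0.0356 when any other library was left out. Without in vitro replicate 2, the edgeR estimate was -4.40. DESeq2's share of all genes called lower in vitro was 1.27%.

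Cldn4, a claudin of tight epithelia and a receptor for Clostridium enterotoxin, was at 57.1, 52.9 and 6.18 CPM in vivo, compared with 102, 205 and 112 CPM in vitro. The groups were separate, but in vivo replicate 3 lay far below the other in vivo libraries. The log2 fold change was 1.85 ± 0.70 (edgeR adjusted p = 0.430; DESeq2 adjusted p = 0.149), and 1.35 without in vivo replicate 3. With no filter on low counts edgeR gave Cldn4 an adjusted p of 0.00501, the one setting in which it was called. That setting called 391 of all 27882 genes tested. Cldn3 was at 4.08, 2.57 and 1.29 CPM in vivo, compared with 5.44, 12.3 and 12.7 CPM in vitro. Again no in vivo library reached the lowest in vitro one, and the log2 fold change was 1.94 ± 0.84 (edgeR adjusted p = 0.482; DESeq2 adjusted p = 0.125). Cldn3 and Cldn4 are neighbours with 39.3 kb between them, at chr5:134986214-134987476 on the plus strand and chr5:134945123-134946934 on the minus strand of GRCm38.

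Cldn7 was at 182, 125 and 88.3 CPM in vivo, compared with 60.9, 200 and 42.7 CPM in vitro (log2 fold change -0.37 ± 0.57). In vitro replicate 2 was the highest of all libraries and in vitro replicate 3 the lowest. Leaving out in vitro replicate 2 moved the estimate to -1.36, and leaving out in vitro replicate 3 moved it to -0.0020. Cldn7 is also annotated on an alternate contig in the deposited table, so its counts are uncertain. Of the 10 log2 ratios compared between partner genes, here meaning genes of one structure, 3 had groups that did not overlap. The log2 ratio of Cldn6 to Cldn7 was -1.08, -1.20 and -2.12 in vivo and -4.24, -4.13 and -3.55 in vitro, a difference of -2.51. That of Cldn4 to Cldn7 was -1.65, -1.22 and -3.64 in vivo and 0.73, 0.03 and 1.37 in vitro, a difference of 2.88. These ratios are not per length, so their differences between libraries can be read but not their sign. Both ratios had the smallest p that 3 against 3 libraries can give (two-sided exact permutation p = 0.1, 0.333 after Benjamini-Hochberg adjustment over the 10 ratios).

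**Figure D3:**
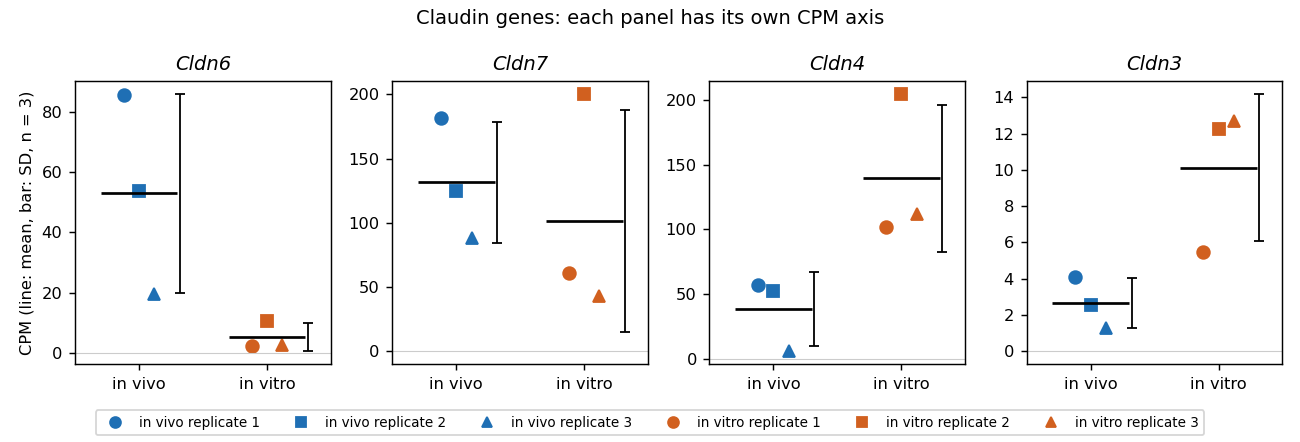
CPM of Cldn6, Cldn4, Cldn3 and Cldn7 by library in separate panels, each with its own linear axis; points are libraries and bars the mean ± SD of 3. The Cldn6 panel has in vivo points at 19.6 to 85.6 CPM above in vitro points at 2.28 to 10.5 CPM, and the Cldn4 and Cldn3 panels have the in vitro points on top.

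The 250 bases before the start of these 4 claudin genes, from RefSeq on GRCm38.p6, are shown because they precede genes of one family whose levels differed in opposite directions. Capitals mark matches to GGAATG, the letters searched for TEAD factors.
Cldn6, chr17:23679115-23679364, plus strand: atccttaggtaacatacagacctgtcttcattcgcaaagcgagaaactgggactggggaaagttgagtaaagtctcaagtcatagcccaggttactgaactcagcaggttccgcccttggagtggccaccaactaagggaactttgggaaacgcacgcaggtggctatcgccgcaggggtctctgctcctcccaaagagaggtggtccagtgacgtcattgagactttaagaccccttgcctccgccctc
Cldn4, chr5:134946935-134947184, minus strand: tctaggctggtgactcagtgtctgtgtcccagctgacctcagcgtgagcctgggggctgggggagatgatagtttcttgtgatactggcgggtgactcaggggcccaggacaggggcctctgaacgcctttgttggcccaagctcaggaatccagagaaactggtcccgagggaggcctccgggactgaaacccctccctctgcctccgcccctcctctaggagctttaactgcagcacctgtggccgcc
Cldn3, chr5:134985964-134986213, plus strand: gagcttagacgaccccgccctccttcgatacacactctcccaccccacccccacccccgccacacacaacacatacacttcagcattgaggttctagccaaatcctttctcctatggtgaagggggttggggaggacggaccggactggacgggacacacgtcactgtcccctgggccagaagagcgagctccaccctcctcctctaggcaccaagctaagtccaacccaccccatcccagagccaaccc
Cldn7, chr11:69964529-69964778, plus strand: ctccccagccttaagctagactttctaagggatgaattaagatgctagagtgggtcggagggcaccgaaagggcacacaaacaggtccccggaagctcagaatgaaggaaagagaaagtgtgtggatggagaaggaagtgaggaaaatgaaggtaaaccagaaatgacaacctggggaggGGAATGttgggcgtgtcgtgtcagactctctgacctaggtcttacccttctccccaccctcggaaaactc
The Cldn6 transcript start used lies 17 bases inside the gene, which spans chr17:23679348-23682446. Sets of letters for 3 factor families were searched on both strands, and they do not contain one another: AACCNGGTT for grainyhead-like factors, GCCNNNGGC for TFAP2 and GGAATG for TEAD. RefSeq promoters were found for 23 of the 35 genes, 29 promoters in all. AACCNGGTT was in 0 of the 29 and in 0.24% of all 32851 promoters. GCCNNNGGC was in 6 of the 29 (20.7%; Afdn, Dsp, Krt18, Krt7, Marveld2 and Ocln) and in 13.7% of all promoters. GGAATG was in 1 of the 29, that of Cldn7 (3.45%), and in 12.6% of all promoters.

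The genes around Cldn6 did not share its pattern throughout. Cldn9, which lies next to it on the opposite strand, had 1, 17 and 0 counts in vivo, versus 0, 26 and 36 counts in vitro, with a log2 fold change of 2.18 ± 1.99. Tnfrsf12a, on its other side, was at 9.33, 9.62 and 6.11 CPM in vivo, versus 0, 5.73 and 4.84 CPM in vitro (-1.23 ± 1.24), with separate groups. Hcfc1r1 (-0.14 ± 0.50) and Thoc6 (0.29 ± 0.52) overlapped between groups.

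The other tight junction membrane genes overlapped between groups. Epcam encodes an adhesion molecule that binds and stabilizes claudins, and at 638, 411 and 405 CPM in vivo, versus 371, 545 and 396 CPM in vitro it was one of the steadiest members (SD 0.31 on the log2 scale; log2 fold change -0.15 ± 0.31). F11r encodes a junctional adhesion molecule and was at 102, 83.0 and 53.9 CPM in vivo, versus 159, 116 and 34.9 CPM in vitro (0.37 ± 0.52). Cxadr, the coxsackievirus and adenovirus receptor, was at 48.4, 37.5 and 65.6 CPM in vivo, versus 53.7, 65.2 and 123 CPM in vitro (0.68 ± 0.41). In vitro replicate 3 was the lowest library for F11r and the highest for Cxadr. Ocln, encoding occludin, was at 38.4, 26.0 and 15.9 CPM in vivo, versus 17.7, 15.5 and 35.7 CPM in vitro (-0.22 ± 0.52).

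Marveld2, encoding tricellulin of the corners where cells meet, was at 9.41, 6.97 and 5.75 CPM in vivo, versus 1.41, 11.6 and 5.10 CPM in vitro (-0.28 ± 0.88). Marveld3, a relative of occludin, was at 3.76, 4.89 and 3.52 CPM in vivo, versus 0, 3.60 and 6.27 CPM in vitro (-0.29 ± 1.36). Both were lowest in in vitro replicate 1. Without that library their log2 fold changes were 0.19 and 0.29. Lsr, encoding angulin of tricellular junctions, was at 42.4, 28.0 and 3.74 CPM in vivo, versus 22.0, 42.8 and 10.8 CPM in vitro (0.03 ± 0.81), with the low values in replicate 3 of each group.

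Of the plaque genes, Tjp1 was higher in vitro. It encodes a zonula occludens scaffold that joins claudins to actin and lies at chr7:65296165-65527850 on the minus strand of GRCm38. Tjp1 was at 38.4, 27.7 and 34.7 CPM in vivo, compared with 50.1, 53.2 and 113 CPM in vitro, and the groups were separate. The log2 fold change was 1.10 ± 0.42 (edgeR adjusted p = 0.428; DESeq2 adjusted p = 0.209), and 0.62 without in vitro replicate 3. Tjp3, a related scaffold, was at 10.4, 6.89 and 2.01 CPM in vivo, versus 5.62, 13.0 and 17.6 CPM in vitro (0.91 ± 0.79). It overlaps Apba3 on the other strand, which had 751 counts beside 590 for Tjp3, and since strand was not marked its counts are uncertain.

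Cingulin and paracingulin, encoded by Cgn and Cgnl1, are plaque proteins that bind the zonula occludens scaffolds. Cgn was at 1.41, 2.24 and 12.7 CPM in vivo, versus 4.04, 1.91 and 3.79 CPM in vitro (-0.75 ± 1.09). One library, in vivo replicate 3, was high, and without it the log2 fold change was 0.83. Cgnl1 was at 9.96, 5.53 and 22.8 CPM in vivo, compared with 25.8, 22.6 and 24.4 CPM in vitro (0.93 ± 0.59), with a narrow spread in vitro, and its log2 fold change was 1.65 without in vivo replicate 3. The log2 ratio of Cgnl1 to Cgn was 2.18, 1.01 and 0.80 in vivo and 2.41, 3.02 and 2.41 in vitro, a difference of 1.28 with separate groups (two-sided exact permutation p = 0.1, adjusted 0.333). The exact permutation p was 0.3 with a pseudocount of 0.1 CPM or with unscaled counts, under which the difference was 1.32 and 1.31. The 4 plaque genes summed to 60.2, 42.4 and 72.1 CPM in vivo, versus 85.5, 90.7 and 158 CPM in vitro. The sums were separate, with 3 of the 4 estimates positive and a median of 0.92. With library totals alone the median was 0.60 and the sums overlapped, at 51.7 to 83.6 in vivo against 70.4 to 132 in vitro.

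**Figure D4:**
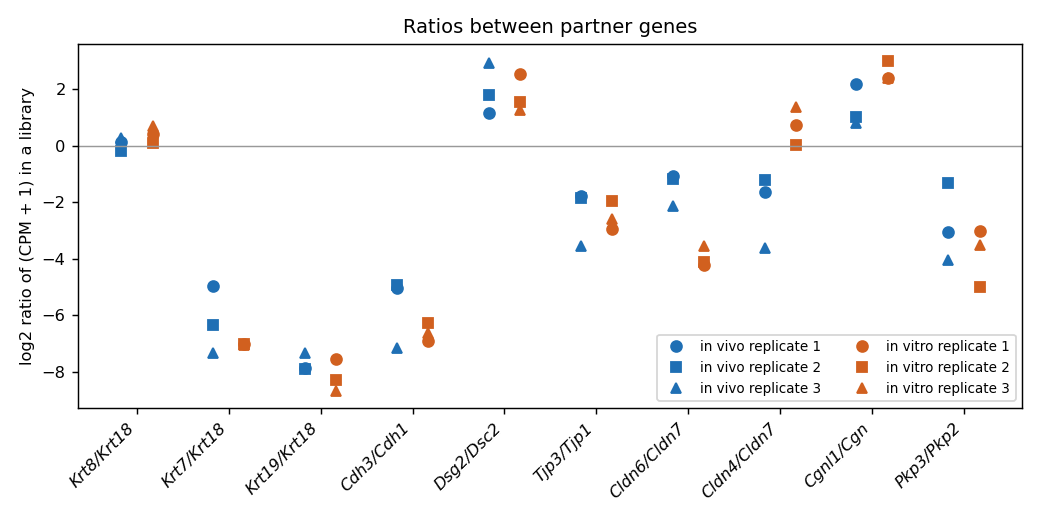
Log2 ratio of CPM + 1 between partner genes in each library, for the 10 ratios compared; blue is in vivo and orange in vitro. The groups are separate for Cldn6 to Cldn7, Cldn4 to Cldn7 and Cgnl1 to Cgn and overlap for the other 7.

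The other 7 ratios overlapped between groups, with exact permutation p of 0.3 to 0.8. Per length, Dsg2 at 6.63 to 15.0 CPM per kb stood above Dsc2 at 1.93 to 7.68 CPM per kb within each of the 6 libraries. Tjp3 at 0.601 to 5.27 CPM per kb lay below Tjp1 at 3.22 to 13.1 CPM per kb within each library.

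The highest and lowest values were unevenly spread over the libraries. Of the 32 tested genes, 11 were lowest in in vivo replicate 3 (34.4%, against 25.8% of all genes), among them Krt8, Krt18, Ctnna1, Cldn3, Cldn4 and Lsr. In vitro replicate 3 held the highest value of 11 genes (34.4%, against 20.9% of all genes), among them Krt8, Ctnna1, Tjp1 and Cxadr. In vitro replicate 2 was highest for 9 genes (28.1%, against 10.7%), among them Krt18, Cldn4 and Cldn7. In vivo replicate 2 was highest for 0 genes (14.5% of all genes) and lowest for 8 (25.0%, against 11.8% of all genes), among them Cdh1, Ctnnd1, Jup and Tjp1. Cldn6 was the most variable gene over the 6 libraries (SD 1.95 of log2(CPM + 1)), followed by Cldn4 (1.67), Krt7 (1.29) and Lsr (1.24).

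**Figure D5:**
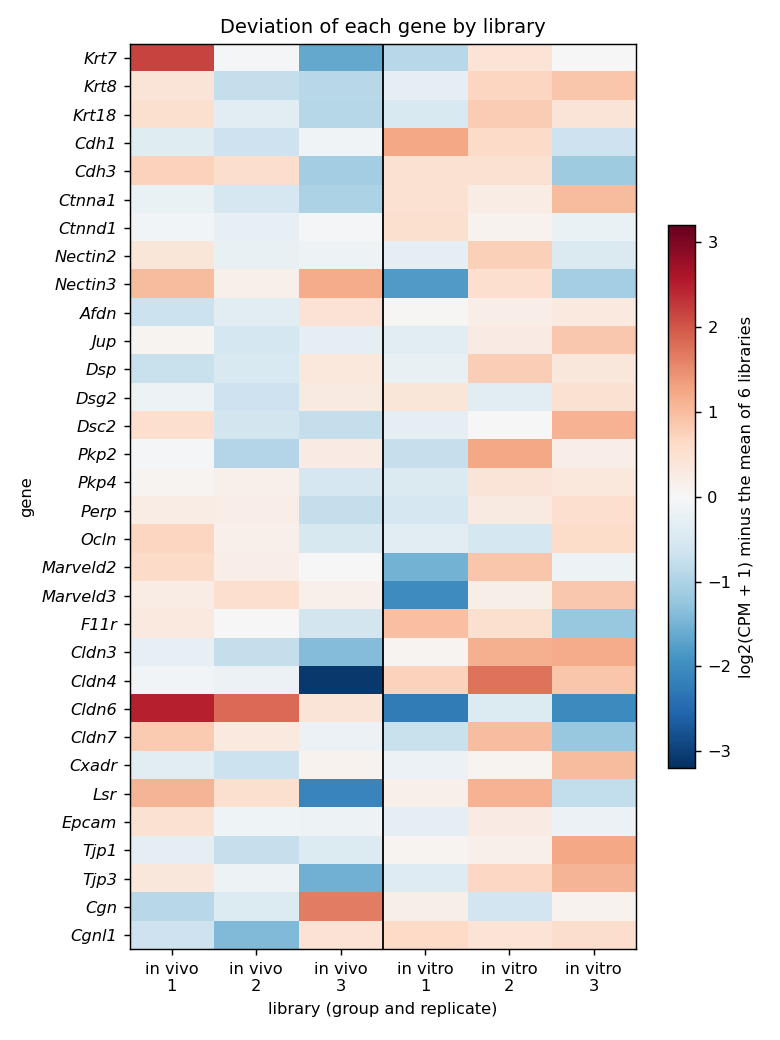
Deviation of log2(CPM + 1) from the gene's mean over the 6 libraries, for the 32 tested genes in rows and the libraries in columns; red is above the mean and blue below. Cldn6 is red in the 3 in vivo columns and blue in the 3 in vitro columns, while Cldn4, Lsr and Tjp3 are darkest blue in in vivo replicate 3.

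Beside the members, 8 lists of 160 symbols were examined. They hold other junction and intermediate filament genes, epithelial transcription factors, mesenchymal genes, and apical and brush border genes. The pooled counts are thus not of junction genes alone. Of the 160 symbols, 159 were in the table and 88 were tested. The fold change was positive in 66 of these and negative in 22 (all genes: 49.8% positive), and the median on the log2 scale was 0.54. At an unadjusted p of 0.05, 15 were higher in vitro and 1 was lower (all genes: 5.11% and 5.08%), and 0 passed edgeR's adjusted threshold, for which the background was 0.0%. Over the 159 genes, whether or not edgeR tested them, DESeq2 called 7 higher and 0 lower. Its share of all genes was 1.55% called higher and 1.27% called lower. The 7 include Podxl, which edgeR's filter left out of the 88.

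Among other tight junction genes, 12 of 18 tested were positive (all genes: 49.8%) and 4 had an unadjusted p below 0.05, all higher in vitro (all genes: 5.11%). Clmp, a relative of Cxadr, was at 1.81 ± 0.150 CPM in vivo, versus 10.7 ± 5.40 CPM in vitro (log2 fold change 2.55 ± 0.83; DESeq2 adjusted p = 0.0168). Patj, a polarity scaffold, was at 4.32 ± 3.66 and 16.4 ± 3.72 CPM (1.92 ± 0.83; DESeq2 adjusted p = 0.177). Both were separate between groups (SD, n = 3 each). Of 18 other claudins in the table, 11 had counts and 2 were tested, Cldn9 and Cldn12, with unadjusted p above 0.05.

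Among other adherens junction genes, 14 of 22 tested were positive (all genes: 49.8%), with 4 higher and 1 lower at an unadjusted p of 0.05 (all genes: 5.11% and 5.08%). Lima1, an actin-bundling protein bound to alpha-catenin, was at 32.2 ± 7.74 CPM in vivo, versus 82.2 ± 20.0 CPM in vitro (1.35 ± 0.36; DESeq2 adjusted p = 0.0432). Ajuba, a LIM protein of junctions and Hippo signalling, was at 4.53 ± 1.56 and 22.7 ± 11.9 CPM (2.32 ± 0.63; DESeq2 adjusted p = 0.0121). Shroom3, which recruits contractile actin to apical junctions, was at 17.8 ± 5.76 and 44.7 ± 23.8 CPM (1.32 ± 0.50; DESeq2 adjusted p = 0.183). The first 2 were separate between groups and Shroom3 overlapped.

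Of 32 other desmosome and cornified envelope genes, 14 had counts and 2 were tested. Of the 10 tested keratin partners and other intermediate filament genes, 7 were positive (all genes: 49.8%). An unadjusted p of 0.05 was passed by 1, higher in vitro (all genes: 5.11%): Vim, which encodes vimentin. Vim had 0, 3 and 11 counts in vivo, versus 156, 146 and 101 counts in vitro, a level of 0.344 ± 0.405 against 17.1 ± 9.0 CPM. Its log2 fold change was 5.57 ± 1.21 (edgeR adjusted p = 0.306; DESeq2 adjusted p = 8.74e-06; limma-voom adjusted p = 0.0423). Dnajb6, a chaperone that binds keratin 18, was at 144 ± 16.2 and 212 ± 30.3 CPM (0.55 ± 0.29).

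Epithelial transcription factors were positive in 17 of 19 tested (all genes: 49.8%), with a median of 0.86, and 4 had an unadjusted p below 0.05, all higher in vitro (all genes: 5.11%). Gata3, a trophectoderm factor, was at 127 ± 26.3 CPM in vivo, versus 242 ± 44.6 CPM in vitro (0.94 ± 0.31; DESeq2 adjusted p = 0.151), with separate groups. Elf5, a further trophoblast factor, was at 5.34 ± 0.864 and 26.7 ± 31.0 CPM, with the in vitro mean set by in vitro replicate 3 at 62.4 CPM. Klf5 was at 107 ± 37.2 and 194 ± 60.6 CPM (0.86 ± 0.37). Of the mesenchymal genes, 3 were tested, and none had an unadjusted p below 0.05. Of 12 tested apical membrane and brush border genes, 9 were positive (all genes: 49.8%). Msn, encoding moesin, was at 49.5 ± 10.5 and 112 ± 53.9 CPM (1.18 ± 0.42), and Ezr, encoding ezrin, at 89.6 ± 27.4 and 137 ± 10.5 CPM (0.61 ± 0.32).

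Other sources of epithelial RNA were measured with marker lists. Markers of uterine and oviduct epithelium summed to 10.6 to 35.5 CPM in vivo, versus 9.93 to 48.4 CPM in vitro, with Ltf, Sprr2f, Pgr and Lcn2 at 0 in all libraries. Of that list, 2 genes were tested, and they went in opposite directions. Muc1 had 132, 58 and 215 counts in vivo, versus 1, 36 and 1 counts in vitro, the direction of Cldn6. Wfdc2, the leading gene of the list, had 310, 49 and 158 counts in vivo, versus 177, 564 and 73 counts in vitro (log2 fold change 1.05). The part of such RNA in the Cldn6 difference was not tested. Skin keratinocyte markers summed to 3.45 to 6.89 CPM in vivo, versus 5.66 to 10.2 CPM in vitro, with Krt5, Krt14, Dsg3 and Trp63 at 0. Cumulus and granulosa markers summed to 8.16 to 15.1 CPM in vivo, versus 1.23 to 5.58 CPM in vitro, with 6 of 10 at 0 in every library. Amhr2 led that sum, at 5.73, 11.7 and 10.4 CPM in vivo, versus 0, 1.54 and 0 CPM in vitro. Star, the other of the 2 genes tested, had a log2 fold change of -0.18. Blood markers summed to at most 5.39 CPM. Primitive endoderm, an epithelium of the inner cell mass that shares several of these junction genes, had markers summing to 260 to 758 CPM in vivo, versus 453 to 1256 CPM in vitro. Of its 9 markers tested, 9 were positive (all genes: 49.8%). Of these, 3 had an unadjusted p below 0.05, all higher in vitro (all genes: 5.11%), namely Sox7, Foxa2 and Lama1. Pdgfra and Col4a1 had log2 fold changes of 0.31 and 0.46, with unadjusted edgeR p of 0.59 and 0.58. Sox7 had 0, 0 and 1 counts in vivo, against 112, 425 and 32 in vitro, and Foxa2 had 0 in each in vivo library, against 196, 54 and 22 in vitro. The part of primitive endoderm content in the differences was not tested.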

How the data were processed

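The deposited file is a matrix of unnormalized read counts for 49993 genes and 6 libraries, with each gene's coordinates and length. FastQC 0.11.2, DESeq2 and the build GRCm39 appear in the submitters' processing notes. The coordinates of all 35 genes equal RefSeq genes on GRCm38.p6, so coordinates are given on that build. The sources used here name no aligner or counter. The transposase-based library kit of the labels' protocols does not mark strand.

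Libraries were grouped by title. Counts were tested as deposited with edgeR 4.0.16 (R 4.3.3): filter on low counts by group (14301 genes), TMM scaling, robust quasi-likelihood F-test (legacy form), two-sided, Benjamini-Hochberg adjustment over all genes tested, threshold 0.05. Standard errors came from the F statistic. CPM values use the TMM-scaled totals, and ratios use log2(CPM + 1). DESeq2 1.42.0 and limma-voom 3.58.1 with quality weights were run beside it. The tests were also run on simulated counts, but that outcome is not reported here and lends the results no support. The spread between libraries of a group beyond counting error was 0.73 (edgeR's common biological coefficient of variation). A gene that was not called may therefore still differ. The members and lists were chosen with earlier results of these data known. All members are named, and from each list up to 3 genes of smallest p with a mean of at least 5 CPM. The values of 1 such gene are not reported here. No label says whether libraries within a group had separate litters, so p-values measure only the spread between these libraries. Total counts set the precision, floors of 3 counts cover counting error only, and PCR copies cannot be told from molecules. A planned comparison of claudin and keratin proteins was not done. Alternatives were other scalings, filters and tools, each library left out, and the replicate number as a block.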

Additional observations from a re-analysis of the deposited data

How the results depend on the processing

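Counts of called genes changed with the tool and the filter. Without the filter on low counts edgeR called 1 member higher (Cldn4) and 1 lower (Cldn6), where the reported fit called 0 and 0. That setting called 391 of all 27882 genes tested, where the reported fit called 0 of 14301. DESeq2 called 0 members higher and 1 lower (Cldn6), with 459 calls among all 16293 genes. DESeq2 fits that left out 1 library were an alternative added after the data were seen. In them, higher calls among the members ranged from 0 to 1 (Cgnl1, without in vivo replicate 3) and lower calls from 0 to 1. The same fits called 152 to 907 of all genes. The other settings called 0 members. Among these settings, edgeR's newer quasi-likelihood form called 3 of all genes and limma-voom 102. The median log2 fold change of the members ranged from 0.03 to 0.47 over the settings other than the DESeq2 fits that left out 1 library, for which it was not computed. Over the same settings, 18 of the 32 genes kept their sign and 14 did not; the causes were not tested. With library totals alone, Ctnnd1 had a log2 fold change of -0.018, Nectin2 -0.20, Pkp4 -0.13, Perp -0.19, F11r -0.0082 and Lsr -0.39. With limma-voom, Perp had -0.10, Lsr -0.23 and Cgn 0.43. Leave-one-out ranges that crossed 0 were -0.76 to 0.33 for Cdh3, -0.43 to 0.31 for Nectin2, -0.045 to 1.03 for Pkp2, -0.058 to 0.47 for Perp, -1.87 to 0.98 for Krt7, -0.68 to 0.11 for Ocln, -1.19 to 0.19 for Marveld2, -1.13 to 0.29 for Marveld3, -0.067 to 0.79 for F11r, -0.61 to 0.65 for Lsr, -0.35 to 0.084 for Epcam and -1.21 to 0.83 for Cgn. Among ratios, unscaled counts gave differences of 0.063 for Krt7 to Krt18, 0.42 for Krt19 to Krt18 and 0.044 for Tjp3 to Tjp1, and a pseudocount of 0.1 CPM gave 0.031 for Tjp3 to Tjp1. Leave-one-out differences were -0.58 to 0.30 for Dsg2 to Dsc2 and -0.67 to 0.21 for Tjp3 to Tjp1. Same-numbered deviations correlated at -0.10, 0.10 and -0.04 across genes, and not every library correlated best with its own number. Deviations from means of only 3 libraries cannot decide whether same-numbered libraries were paired. With the replicate number as a block, 0 genes were called, the median was 0.39, Nectin2 was at -0.0046 and Krt7 at 0.63. Depth limits Krt19, Pkp3, Krt7, Cdh3 and Nectin3, which had few counts in several libraries.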

Other observations

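A pair of genes of the same lists, named after their values were seen because their means over the 6 libraries fall under 5 CPM, had counts in vitro alone. Grhl3, a grainyhead-like factor of epithelial barrier genes, had 0 counts in each in vivo library and 35, 115 and 22 counts in vitro, at least 83.2-fold higher, taking 3 counts as the floor for the in vivo group. It had an adjusted p of 0.306 in edgeR, 3.16e-05 in DESeq2 and 0.0396 in limma-voom. Without in vitro replicate 2 the fold was at least 55.7. Podxl, an apical membrane sialomucin, was at 0 counts in vivo, versus 44, 50 and 0 counts in vitro, at least 45.5-fold higher over the group, and its DESeq2 adjusted p was 0.0237, or 0.380 without in vitro replicate 1, 0.0951 without in vitro replicate 2, 0.0758 without in vivo replicate 1 and 0.111 without in vivo replicate 2. The call held when either replicate 3 was left out, at 0.000775 (in vitro) and 0.0246 (in vivo). It did not pass edgeR's filter on low counts.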
